A study of Mus musculus with 12 samples.

Results

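The Eph receptors, the ephrins, the semaphorins, the plexins, and neuropilin-2 are cell-surface and secreted proteins best known for steering growing axons, and their genes were followed here in CD4+ T cells. Members were all genes of the count files whose symbols begin with *Epha*, *Ephb*, *Efna*, *Efnb*, *Sema3* to *Sema7*, *Plxna*, *Plxnb*, *Plxnc*, or *Plxnd*, together with *Nrp2*, when their reads in the 12 libraries added up to at least 10. Of 52 such genes among 26608 genes listed, 43 had enough reads, and these comprise 6 ephrins, 11 Eph receptors, 17 semaphorins, 8 plexins, and *Nrp2*. The remaining 9 had 0 to 8 reads (*Epha5* 0, *Epha6* 1, *Ephb1* 1, *Sema3c* 1, *Sema5b* 5, *Efna5* 6, *Plxna4* 6, *Efna1* 7, *Sema3g* 8), whereas the member closest to the limit, *Sema3a*, had 16.

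RNA sequencing was performed on CD4+ YFP(FOXP3)- T cells sorted at 14 weeks of age from the spleen and the cervical and inguinal lymph nodes, pooled per mouse, and each group has 4 mice and 1 library per mouse. WT denotes Foxp3Cre WT mice, and DKO-moderate and DKO-severe denote Foxp3-Cre Tet2/3 fl/fl mice that the study divided by how many cells their spleen and lymph nodes held. All 3 groups carry the Cre recombinase expressed together with YFP under the control of *Foxp3*, which in the DKO groups directs the loss of *Tet2* and *Tet3* to cells with past or present *Foxp3* expression. The study notes that this Cre may also be active at a low level in other cells. The sort removed cells that were YFP positive at that moment, and the sorted cells can hold both T cells with intact floxed alleles and T cells that expressed *Foxp3* earlier. In bulk RNA, fewer cells of a type and less RNA per cell cannot be told apart, and this applies to every level below.

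Eph receptors are receptor tyrosine kinases, and their ligands, the ephrins, are held on the surface of neighbouring cells, ephrin-A proteins by a lipid anchor and ephrin-B proteins by a transmembrane segment, so that both cells receive a signal on contact. Semaphorins are secreted (class 3), transmembrane (classes 4, 5, and 6), or lipid-anchored (class 7), and most of them bind plexins, receptors whose cytoplasmic part inactivates small GTPases of the Ras family. Class 3 semaphorins generally need a neuropilin as co-receptor. In the immune system the same proteins act in adhesion, migration, and contact between T cells and antigen-presenting cells or B cells.

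Between 29254260 and 42133536 reads were counted on genes per library. The floxed genes were read in every library, *Tet2* at 43.3 to 62.2 CPM (reads of a gene relative to all reads on genes of the library, scaled by edgeR's TMM method) in WT, 34.8 to 57.8 in DKO-moderate, and 56.7 to 65.8 in DKO-severe, and *Tet3* at 167 to 210.4, 90.3 to 185, and 87.8 to 102 CPM. Counts per gene do not separate the floxed exons from the rest of *Tet2* and *Tet3*, so these levels do not check the deletion. *Foxp3* was at or below 3.10 CPM throughout. General T cell markers summed to 4433 to 4943 CPM in WT, 4742 to 5341 in DKO-moderate, and 3794 to 4345 in DKO-severe. A list of 6 naive T cell markers summed to 3707 to 4430.2, 2107 to 3257, and 1472 to 1794 CPM, and a list of 6 T follicular helper (Tfh) cell markers to 163 to 321, 630.3 to 1513, and 1493 to 2328 CPM, so both lists separated the 3 groups almost completely. Libraries differed in markers of other cells. Neutrophil markers summed to 2298 and 860.0 CPM in DKO-severe 1 and DKO-severe 2 and to at most 45.3 CPM elsewhere, and B cell markers to 245 CPM in WT 3 and 408 CPM in DKO-severe 2. Y-linked transcripts were at or near 0 in WT 2, DKO-moderate 2, DKO-moderate 4, and DKO-severe 3, and the labels give no sex.

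More members were called higher than lower in the DKO libraries, and 17 of 43 were called in neither comparison with WT. In DKO-severe against WT, 21 of 43 members were higher and 5 lower at an adjusted p-value under 0.05 in edgeR's quasi-likelihood test, where 26.6% of the 16035 genes tested were higher and 25.9% lower. The median log2 fold change of the members was 1.76 (1.72 with the genes without WT reads set at their lower bounds), and that of all genes tested was -0.01. In DKO-moderate against WT, 15 members were higher and 2 lower, beside 12.3% and 4.74% of all genes, with a median log2 fold change of 0.76 for the members and 0.00 for all genes. In DKO-severe against DKO-moderate, 7 members were higher and 1 lower, beside 9.41% and 10.7% of all genes, with medians of 0.75 and -0.03. Both comparisons with WT share the WT libraries, and each DKO group enters more than 1 comparison, so the 3 sets of values are not independent of one another.

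Part of these counts and medians concerns genes that were nearly absent from WT cells and could hardly be called lower. Of the 43 members, 14 had fewer than 10 reads over the 4 WT libraries, and they could pass the limit on reads only through a DKO group. Of these, 8 were called higher in DKO-severe (*Epha4*, *Epha7*, *Epha10*, *Ephb3*, *Ephb4*, *Plxnb3*, *Sema3e*, and *Sema6a*). Among the other 29 members, which were read in WT cells, 13 were higher and 5 lower in DKO-severe, beside 26.6% and 25.9% of all genes. Those shares are over genes of every WT level, and shares for genes of like WT level were not computed for either part. The member medians above include the 14 genes with few WT reads and so lean upward. Setting genes at their lower bounds does not remove this, and medians of the 29 alone were not computed. With WT 3, DKO-severe 1, and DKO-severe 2 left out together, a choice made after the marker values had been seen, 23 members were called in DKO-severe against WT (19 higher and 4 lower, beside 23.4% and 19.7% of all genes in that fit), 17 in DKO-moderate against WT (15 and 2, beside 11.8% and 4.69%), and 5 in DKO-severe against DKO-moderate (4 and 1, beside 7.5% and 5.76%). The calls lost were *Epha1*, *Epha4*, and *Sema6c* in DKO-severe against WT, *Sema4b* in DKO-moderate against WT, and *Epha1*, *Epha3*, *Ephb3*, and *Sema3f* between the DKO groups. Those gained were *Sema4a* in DKO-moderate against WT and *Ephb4* between the DKO groups. With terms for the neutrophil and B cell marker lists in the model, which move with the groups, the counts were 13 (all higher), 14, and 0, beside 12.3% higher and 4.68% lower among all genes in DKO-severe against WT. Among all genes, that fit called 9.54% higher and 2.97% lower in DKO-moderate against WT, and 0.917% and 0.0998% between the DKO groups. The 13 were *Epha3*, *Epha7*, *Epha10*, *Ephb3*, *Ephb4*, *Plxna3*, *Plxnb2*, *Plxnc1*, *Sema3e*, *Sema4c*, *Sema6a*, *Sema6d*, and *Sema7a*.

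**Figure D1:**
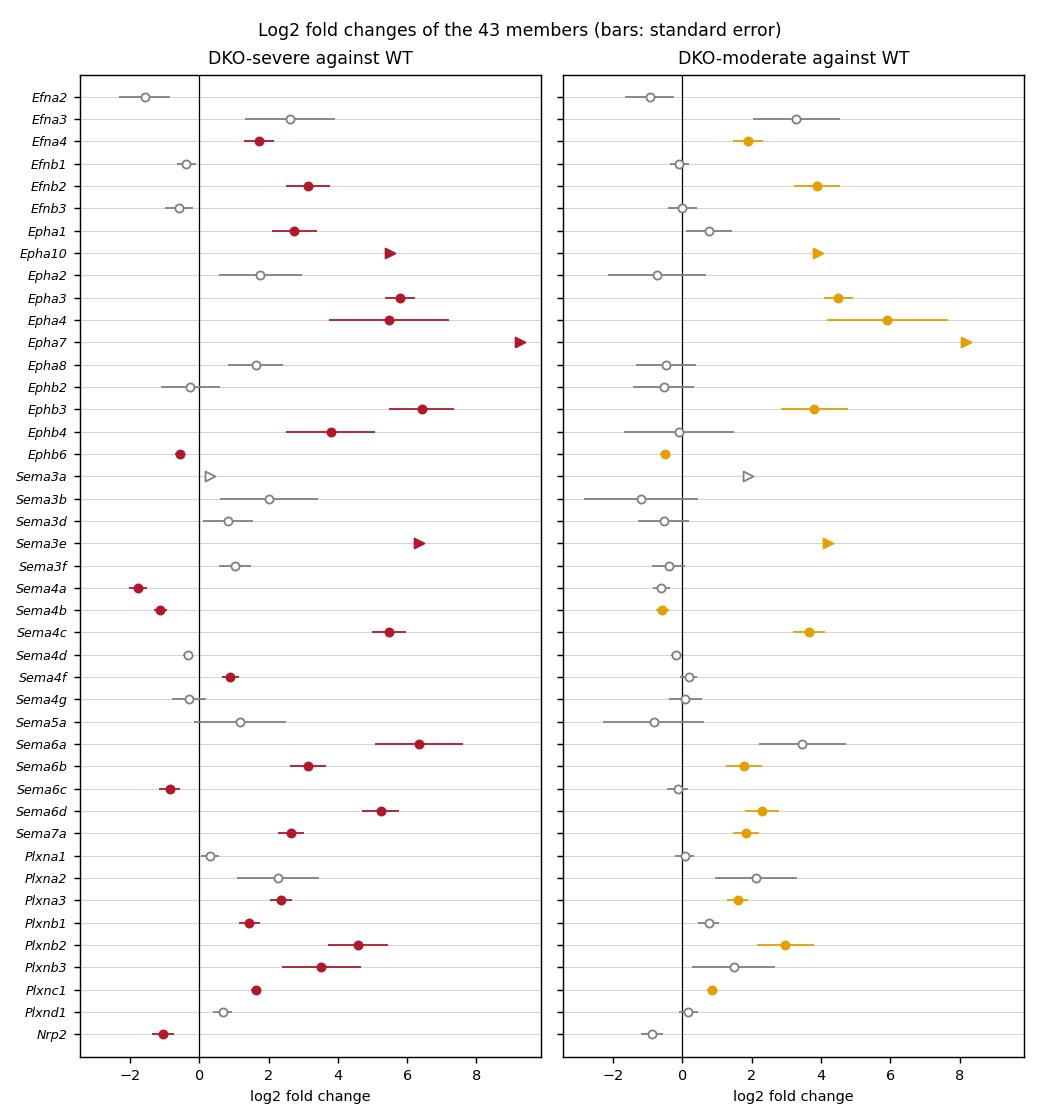
Log2 fold change against WT (x axis) of each of the 43 members (y axis, ordered as ephrins, Eph receptors, semaphorins, plexins, and *Nrp2*) in DKO-severe on the left and DKO-moderate on the right. Filled symbols passed an edgeR adjusted p-value of 0.05, bars are standard errors, and triangles mark the lower bound of genes without a read in WT. In DKO-severe 21 filled symbols lie to the right of 0 and 5 to the left, in DKO-moderate 15 and 2.

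Sequences in front of 4 of these genes are shown because TET enzymes act on methylated cytosines, which in mammals lie mostly in CpG dinucleotides. These genes had the 3 largest rises and the largest fall in DKO-severe against WT. The choice was among members with WT reads whose mean reached 5 CPM in some group. All 4 are among the 7 members called both in DKO-severe against WT and in DKO-severe against DKO-moderate. They were picked after their values were seen. Each is the 250 bases before the annotated start in RefSeq's GRCm38.p6 table, read 5′ to 3′ on the gene's strand, with every CpG in capitals. The window of *Epha3* lies at chr16:63864176-63864425 (minus strand), that of *Sema4c* at chr1:36558382-36558631 (minus strand), that of *Sema6d* at chr2:124089719-124089968 (plus strand), and that of *Sema4a* at chr3:88461183-88461432 (minus strand).
Epha3: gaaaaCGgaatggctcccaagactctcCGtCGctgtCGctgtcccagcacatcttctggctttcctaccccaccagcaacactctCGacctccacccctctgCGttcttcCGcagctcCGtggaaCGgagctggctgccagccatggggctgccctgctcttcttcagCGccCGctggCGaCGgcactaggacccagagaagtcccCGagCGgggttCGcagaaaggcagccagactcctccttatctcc
Sema4c: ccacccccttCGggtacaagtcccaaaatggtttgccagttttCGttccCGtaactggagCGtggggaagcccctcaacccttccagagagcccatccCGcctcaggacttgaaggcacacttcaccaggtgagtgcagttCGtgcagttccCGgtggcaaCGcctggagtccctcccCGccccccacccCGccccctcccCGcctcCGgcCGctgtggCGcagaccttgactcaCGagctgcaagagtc
Sema6d: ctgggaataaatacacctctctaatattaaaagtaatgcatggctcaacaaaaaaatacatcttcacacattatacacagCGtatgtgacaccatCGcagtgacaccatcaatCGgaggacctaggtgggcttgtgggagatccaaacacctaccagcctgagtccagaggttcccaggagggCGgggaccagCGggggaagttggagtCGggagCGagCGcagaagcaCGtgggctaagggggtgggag
Sema4a: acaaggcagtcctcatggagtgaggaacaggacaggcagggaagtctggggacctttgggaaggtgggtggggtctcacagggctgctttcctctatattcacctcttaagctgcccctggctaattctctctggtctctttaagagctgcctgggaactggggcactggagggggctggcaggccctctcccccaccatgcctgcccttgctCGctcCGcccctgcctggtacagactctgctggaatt

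The 3 windows of the genes that rose hold 16 CpGs (*Epha3*), 15 (*Sema4c*), and 9 (*Sema6d*), and that of *Sema4a* holds 2. The table lists further starts for *Sema4c* (2 in all), *Sema6d* (2), and *Sema4a* (4), and the one outside the annotated gene is printed. The windows not printed hold 23 CpGs for *Sema4c*, 6 for *Sema6d*, and 3, 6, and 13 for *Sema4a*, and those of the other 3 genes called in both comparisons hold 9 (*Epha1*), 16 (*Ephb3*), and 22 (*Plxnc1*). Of the 43 members, 38 had a start in the table, with 51 windows between them. Their median was 15 CpGs, beside 6 over all 32851 windows of the same length, and it was 15 for members called higher in DKO-severe, 14 for those called lower, and 16.5 for those not called. CpG number in this window thus did not separate the members that rose from those that fell. On either strand, the FOXO motif TGTTTAC was in 0 of 51 windows (3.17% of all windows), the AP-1 motif TGANTCA in 3 of 51 (5.88%, against 6.75% of all), and the E-box CANNTG in 26 of 51 (51.0%, against 66.2% of all). Methylation was not measured in these libraries.

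Of the 6 ephrin genes, 2 were called higher in each DKO group, beside 26.6% of all genes in DKO-severe and 12.3% in DKO-moderate. In DKO-severe this share was near that of all genes, and 6 genes are few. *Efnb2* encodes ephrin-B2, a transmembrane ligand of EphB receptors and of EphA4, and lies at chr8:8617434-8661242 (GRCm38, minus strand). *Efnb2* was at 1.06, 1.94, 1.58, and 1.80 CPM in WT, 3.08, 33.2, 11.4, and 47.0 in DKO-moderate, and 13.5, 18.02, 11.9, and 12.5 in DKO-severe. Every DKO library was above every WT library, and the DKO-moderate libraries spanned a far wider range than the DKO-severe ones, with DKO-moderate 2 and DKO-moderate 4 the highest of all 12. Its log2 fold change was 3.13 ± 0.64 (SE) in DKO-severe (edgeR adjusted p = 0.00150) and 3.89 ± 0.65 in DKO-moderate (edgeR adjusted p = 0.00214). DKO-moderate 2 and DKO-moderate 4 were also the DKO-moderate libraries without Y-linked transcripts and those with the higher Tfh marker sums (1513 and 1318 CPM, against 630.3 and 779 CPM in DKO-moderate 1 and DKO-moderate 3). With a term for Y-linked transcripts the log2 fold change in DKO-moderate was 3.22 (edgeR adjusted p = 0.00574).

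*Efna4*, whose product ephrin-A4 is lipid-anchored, was counted at 0.632, 0.484, 0.891, and 0.656 CPM in WT, 1.04, 2.55, 1.44, and 4.93 in DKO-moderate, and 2.40, 1.70, 2.21, and 2.51 in DKO-severe. It was low everywhere, but again no DKO library reached down to the WT range. The log2 fold changes were 1.72 (edgeR adjusted p = 0.00634) and 1.90 (edgeR adjusted p = 0.0129). With the neutrophil and B cell terms neither *Efnb2* (edgeR adjusted p = 0.231) nor *Efna4* (edgeR adjusted p = 0.263) passed in DKO-severe. *Efnb1*, encoding ephrin-B1, was the most abundant ephrin in WT per exon length and was not called, at 3.61 to 6.96 CPM in WT and 2.86 to 5.24 CPM in DKO-severe (log2 fold change -0.37). *Efna2*, *Efna3*, and *Efnb3* had means between 0.0149 and 1.13 CPM and were not called.

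Among the 11 Eph receptors, 7 were higher in DKO-severe and 1, *Ephb6*, was lower (26.6% and 25.9% of all genes). The 7 EphA receptors contributed 5 of the rises, with *Epha3* the most abundant. *Epha3*, a receptor of ephrin-A ligands, lies at chr16:63543534-63864175 (minus strand). *Epha3* was counted at 0.144, 0.419, 0.345, and 0.519 CPM in WT, 9.30, 8.23, 5.89, and 9.30 in DKO-moderate, and 22.4, 29.2, 19.0, and 9.45 in DKO-severe. The 3 groups did not overlap, although the highest DKO-moderate and lowest DKO-severe libraries were close, and mean levels were 0.357 ± 0.159 (SD, n = 4), 8.18 ± 1.61, and 19.99 ± 8.21 CPM. On the log2 scale *Epha3* differed from WT by 5.79 ± 0.43 in DKO-severe (edgeR adjusted p = 4.58e-06) and by 4.505 ± 0.41 in DKO-moderate (edgeR adjusted p = 9.77e-05), and the 2 DKO groups differed by 1.29 ± 0.34 (edgeR adjusted p = 0.0220).

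*Epha7*, another ephrin-A receptor gene, at chr4:28813131-28967499 (plus strand), had no read in any WT library. It was counted at 0.877, 14.5, 3.60, and 8.05 CPM in DKO-moderate and 11.6, 11.3, 7.71, and 22.3 CPM in DKO-severe. Every DKO library had reads of a gene that was not detected in WT. Against a limit of 3 reads over the WT libraries, *Epha7* was at least 615-fold higher in DKO-severe (edgeR adjusted p = 1.41e-04) and at least 292-fold higher in DKO-moderate (edgeR adjusted p = 0.00134). These limits and the intervals below cover counting error only. The DKO-severe and DKO-moderate ranges of *Epha7* overlapped (log2 difference 0.97 ± 0.69, edgeR adjusted p = 0.335).

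The other Eph receptors that rose were low. *Epha10*, whose product lacks kinase activity, was also without WT reads and at least 45.0-fold higher in DKO-severe (edgeR adjusted p = 0.00152) and at least 15.2-fold higher in DKO-moderate (edgeR adjusted p = 0.0163). *Epha1* rose by 2.74 on the log2 scale in DKO-severe (edgeR adjusted p = 0.00406), to a mean of 0.898 CPM, but by only 1.15 with the 3 libraries left out (edgeR adjusted p = 0.122). *Ephb3* had 1 WT read, and the ratio of its level in DKO-severe to WT was 124 (95% interval 21.8 to 4923) (edgeR adjusted p = 1.48e-04), that in DKO-moderate 20.5 (95% interval 3.31 to 845) (edgeR adjusted p = 0.0192). *Ephb4* had 3 WT reads and a DKO-severe ratio of 17.1 (95% interval 5.54 to 85.2) (edgeR adjusted p = 0.0264), with overlapping ranges, and was not called by DESeq2 (adjusted p = 0.0519) or with a replicate block (edgeR adjusted p = 0.0509). *Epha4*, whose product binds ephrins of both classes, was high in 1 library of each DKO group. It was counted at 0, 0.0323, 0.115, and 0 CPM in WT, 0.133, 8.98, 0.323, and 0.238 in DKO-moderate, and 5.32, 0.548, 0.952, and 0.335 in DKO-severe. DKO-moderate 2 and DKO-severe 1 stood far above their groups. The *Epha4* log2 fold changes were 5.48 ± 1.72 (edgeR adjusted p = 0.0186) and 5.91 ± 1.74 (edgeR adjusted p = 0.0359). In DKO-severe *Epha4* was at 0.77 with the neutrophil and B cell terms (edgeR adjusted p = 0.831) and at 5.61 with the 3 libraries left out (edgeR adjusted p = 0.0850). *Epha2*, *Epha8*, and *Ephb2* had group means of at most 0.211 CPM and were not called.

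*Ephb6*, which encodes an Eph receptor without kinase activity that is known in T cells and thymocytes, was the one abundant Eph receptor gene in WT cells. *Ephb6* (at chr6:41605482-41620509, plus strand) was counted at 78.0, 66.3, 61.0, and 75.8 CPM in WT, 45.7, 52.2, 60.4, and 39.2 in DKO-moderate, and 57.4, 44.2, 45.0, and 44.3 in DKO-severe. All 8 DKO libraries were below all 4 WT libraries, the nearest being 60.4 CPM in DKO-moderate 3 and 61.0 CPM in WT 3. *Ephb6* fell by 0.56 on the log2 scale in DKO-severe (edgeR adjusted p = 0.00520) and by 0.51 in DKO-moderate (edgeR adjusted p = 0.0255), and the DKO groups differed by -0.05 (edgeR adjusted p = 0.826). With the neutrophil and B cell terms the DKO-severe value of *Ephb6* was -0.75 and did not pass (edgeR adjusted p = 0.0673).

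**Figure D2:**
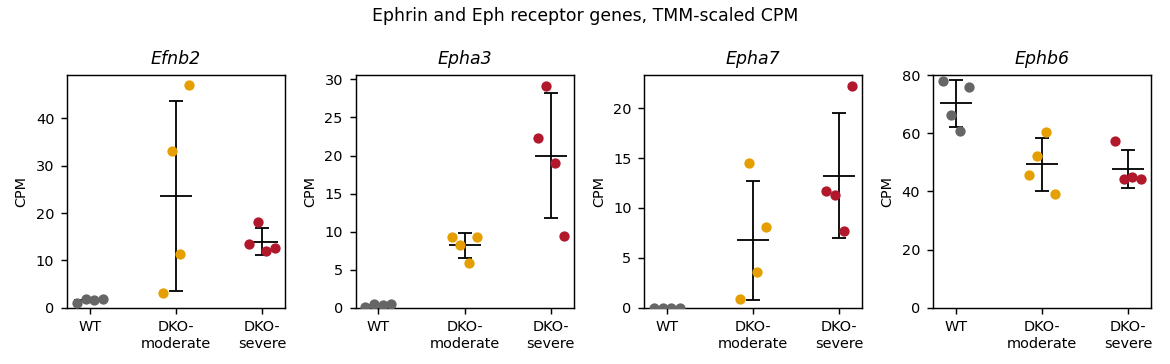
Levels of *Efnb2*, *Epha3*, *Epha7*, and *Ephb6* in CPM (y axes from 0) in the 4 WT, 4 DKO-moderate, and 4 DKO-severe libraries (points), with the mean and SD (bars). *Epha7* is at 0 in all WT libraries, *Efnb2* spans 3.08 to 47.0 CPM in DKO-moderate, and the DKO libraries of *Ephb6* lie below the WT libraries.

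Semaphorin genes moved in both directions, with 7 of 17 higher and 3 lower in DKO-severe (26.6% and 25.9% of all genes), and both directions occurred within class 4. *Sema4a*, whose transmembrane product takes part in T cell priming and differentiation, lies at chr3:88435959-88461182 (minus strand) and shares 73 exon bases with a microRNA gene on the same strand. It was counted at 192, 193, 149, and 175 CPM in WT, 139, 83.3, 124, and 119.9 in DKO-moderate, and 27.8, 78.1, 54.6, and 48.7 in DKO-severe. The groups were ordered WT, DKO-moderate, DKO-severe without overlap. *Sema4a* fell by 1.76 ± 0.26 on the log2 scale in DKO-severe against WT (edgeR adjusted p = 1.55e-04), the largest fall among the members, and by 1.16 ± 0.25 in DKO-severe against DKO-moderate (edgeR adjusted p = 0.0102). The value for DKO-moderate against WT, -0.60 ± 0.25, did not pass (edgeR adjusted p = 0.117).

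*Sema4b*, a second transmembrane class 4 gene, was counted at 82.1, 72.1, 72.7, and 64.1 CPM in WT, 62.8, 35.6, 59.99, and 36.8 in DKO-moderate, and 30.8, 39.1, 32.8, and 31.1 in DKO-severe. In DKO-moderate the libraries formed 2 pairs, with DKO-moderate 2 and DKO-moderate 4 near the DKO-severe range and DKO-moderate 1 and DKO-moderate 3 closer to WT. *Sema4b* fell by 1.12 on the log2 scale in DKO-severe (edgeR adjusted p = 3.29e-04) and by 0.58 in DKO-moderate (edgeR adjusted p = 0.0462). With the neutrophil and B cell terms, the DKO-severe values of *Sema4a* (-1.27, edgeR adjusted p = 0.106) and *Sema4b* (-0.83, edgeR adjusted p = 0.128) kept their sign and did not pass. Both genes fell alongside the naive T cell marker list, and the part of naive T cells in the result was not tested.

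*Sema4c* rose from near absence. Its product is a membrane semaphorin that binds plexin-B2, and the gene lies at chr1:36548639-36558349 (minus strand). *Sema4c* was counted at 0.575, 0.548, 0.460, and 1.48 CPM in WT, 9.20, 14.97, 6.06, and 8.85 in DKO-moderate, and 48.3, 17.6, 24.5, and 47.8 in DKO-severe. Again the 3 groups did not overlap, and mean levels were 12.8 times and 45.2 times the WT mean in DKO-moderate and DKO-severe. The log2 fold change of *Sema4c* was 5.48 ± 0.50 in DKO-severe (edgeR adjusted p = 9.72e-06), 3.66 ± 0.47 in DKO-moderate (edgeR adjusted p = 5.16e-04), and 1.82 ± 0.41 between the DKO groups (edgeR adjusted p = 0.0116).

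*Sema4f*, a transmembrane semaphorin gene, was counted at 55.4, 45.3, 44.9, and 48.5 CPM in WT, 43.4, 83.0, 50.2, and 44.3 in DKO-moderate, and 127, 59.5, 74.5, and 101 in DKO-severe. It was higher in DKO-severe by 0.90 ± 0.24 on the log2 scale (edgeR adjusted p = 0.00865) but not with the neutrophil and B cell terms (0.40, edgeR adjusted p = 0.510), and in DKO-moderate only DKO-moderate 2 stood above the WT range. *Sema4d*, which encodes CD100, a T cell semaphorin that binds plexin-B1 and the B cell protein CD72, was the most abundant member. It was at 274 to 307 CPM in WT, 183 to 322 in DKO-moderate, and 191 to 258 in DKO-severe. The DKO-severe libraries were below the WT libraries, yet *Sema4d* did not pass the test (log2 fold change -0.33 ± 0.15, edgeR adjusted p = 0.0874). *Sema4g* averaged at most 0.271 CPM and was not called.

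All 4 class 6 genes were called in DKO-severe, 3 higher and 1 lower (26.6% and 25.9% of all genes), and *Sema6d* changed most in level. The transmembrane product of *Sema6d* binds plexin-A1, and the gene lies at chr2:124089969-124667770 (plus strand). *Sema6d* was counted at 0.661, 1.42, 3.19, and 2.05 CPM in WT, 6.06, 12.5, 9.27, and 7.97 in DKO-moderate, and 93.6, 22.9, 93.7, and 67.0 in DKO-severe. The DKO-moderate range lay just above WT, whereas 3 of the 4 DKO-severe libraries were at 67.0 CPM or more and DKO-severe 2 was lowest of the 4. Its log2 fold changes were 5.24 ± 0.54 in DKO-severe (edgeR adjusted p = 1.67e-05), 2.28 ± 0.49 in DKO-moderate (edgeR adjusted p = 0.00827), and 2.95 ± 0.47 between the DKO groups (edgeR adjusted p = 0.00385), the last being larger than the step from WT to DKO-moderate in size, a comparison of 2 estimates that was not tested. *Sema6a* had 4 WT reads and rose by 6.34 ± 1.27 in DKO-severe (edgeR adjusted p = 0.00133), and in DKO-moderate it was at 3.47 ± 1.25 (edgeR adjusted p = 0.0767). *Sema6b* rose by 3.13 in DKO-severe (edgeR adjusted p = 4.15e-04) and by 1.78 in DKO-moderate (edgeR adjusted p = 0.0333). Its highest level in any library was 2.76 CPM. *Sema6c* was -0.85 in DKO-severe (edgeR adjusted p = 0.0348), with ranges that overlapped WT, and it did not pass when counts were scaled by library size alone (-0.66, edgeR adjusted p = 0.0979), a scaling that moves the median of all genes by 0.18 in DKO-severe against WT.

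*Sema7a* is the lipid-anchored class 7 gene, whose product is made by activated T cells and binds plexin-C1 and the integrin chains encoded by *Itga1* and *Itgb1*. The gene lies at chr9:57940112-57962865 (plus strand). It was counted at 2.13, 1.52, 4.08, and 4.26 CPM in WT, 13.8, 10.1, 9.74, and 9.22 in DKO-moderate, and 19.1, 30.3, 9.78, and 16.3 in DKO-severe. All 8 DKO libraries exceeded all WT libraries, and the DKO ranges overlapped each other. *Sema7a* rose by 2.65 ± 0.39 on the log2 scale in DKO-severe (edgeR adjusted p = 1.56e-04) and by 1.83 ± 0.38 in DKO-moderate (edgeR adjusted p = 0.00650).

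The secreted class 3 genes were low. *Sema3e*, whose product binds plexin-D1, had no WT reads and was at least 81.9-fold higher in DKO-severe (edgeR adjusted p = 0.00189) and at least 18.3-fold higher in DKO-moderate (edgeR adjusted p = 0.0290), with 6.24 CPM in DKO-severe 2 and at most 1.07 CPM in the other DKO-severe libraries. *Sema3f*, a neuropilin-2 ligand gene, was not called against WT, with log2 values of 1.03 in DKO-severe (edgeR adjusted p = 0.0778) and -0.40 in DKO-moderate. *Sema3a*, *Sema3b*, *Sema3d*, and the class 5 gene *Sema5a* had group means of 0 to 2.41 CPM and passed no comparison.

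Of the 8 plexins, 5 were higher in DKO-severe, beside 26.6% of all genes, and 3 were higher in DKO-moderate, beside 12.3%. *Plxnc1*, the receptor of Sema7A, lies at chr10:94790866-94944835 (minus strand) and shares 115 exon bases with another gene model on the same strand. *Plxnc1* was counted at 29.4, 33.7, 32.4, and 37.5 CPM in WT, 61.8, 65.2, 58.7, and 52.7 in DKO-moderate, and 112, 80.1, 95.7, and 128 in DKO-severe. The groups were ordered WT, DKO-moderate, DKO-severe without overlap. It rose by 1.64 ± 0.14 in DKO-severe (edgeR adjusted p = 6.53e-06) and by 0.84 ± 0.13 in DKO-moderate (edgeR adjusted p = 0.00159), and DKO-severe exceeded DKO-moderate by 0.80 ± 0.13 (edgeR adjusted p = 0.00422), all on the log2 scale.

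*Plxna3* encodes a co-receptor of class 3 semaphorins with neuropilins. *Plxna3* was counted at 8.53, 10.3, 7.04, and 10.8 CPM in WT, 17.1, 51.1, 19.6, and 23.7 in DKO-moderate, and 50.2, 37.0, 49.9, and 49.9 in DKO-severe. DKO-moderate 2 was at the level of the DKO-severe libraries, and DKO-severe 2 was the lowest of its group. The log2 fold changes of *Plxna3* were 2.35 ± 0.31 (edgeR adjusted p = 7.93e-05) and 1.60 ± 0.30 (edgeR adjusted p = 0.00429). *Plxnb1*, the plexin that binds Sema4D, was counted at 4.86, 6.55, 6.81, and 7.33 CPM in WT, 6.19, 18.3, 11.7, and 7.15 in DKO-moderate, and 15.1, 14.8, 16.6, and 23.2 in DKO-severe. It rose by 1.45 ± 0.31 in DKO-severe (edgeR adjusted p = 0.00213) and was at 0.76 ± 0.31 in DKO-moderate (edgeR adjusted p = 0.109), and its DKO-severe value did not pass with the neutrophil and B cell terms (edgeR adjusted p = 0.0796).

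*Plxnb2*, the receptor of Sema4C, which is expressed by germinal centre B cells and many other cells, lies at chr15:89155549-89180788 (minus strand). *Plxnb2* was counted at 0.632, 0.968, 8.85, and 1.59 CPM in WT, 7.47, 56.4, 12.2, and 19.2 in DKO-moderate, and 103, 50.4, 56.1, and 79.5 in DKO-severe. DKO-severe libraries were all above WT, while the DKO-moderate range reached from the WT range to the DKO-severe range. The *Plxnb2* log2 fold change was 4.58 ± 0.86 in DKO-severe (edgeR adjusted p = 8.72e-04) and 2.98 ± 0.81 in DKO-moderate (edgeR adjusted p = 0.0255). Sums of the B cell list and of the monocyte and macrophage list are given here beside *Plxnb2*. WT 3, the WT library with the most *Plxnb2*, had B cell markers at 245 CPM and 8 monocyte and macrophage markers at 181 CPM, against at most 15.2 and 13.4 CPM in the other WT libraries. DKO-severe 3 and DKO-severe 4 had *Plxnb2* at 56.1 and 79.5 CPM with 86.0 and 66.9 CPM of the monocyte and macrophage list and 68.1 and 154 CPM of the B cell list. Of those B cell sums, *Blk* alone gave 34.1 and 117 CPM. DKO-severe 2, with the highest sums of both lists (408 CPM of B cell and 367 CPM of monocyte and macrophage markers), had the lowest *Plxnb2* level of its group, and DKO-moderate 2 had 20.1 and 55.6 CPM beside 56.4 CPM of *Plxnb2*. In the same order, DKO-severe 1 had 124 and 364 CPM beside 103 CPM of *Plxnb2*. DKO-moderate 4 had 20.7 and 57.7 CPM beside 19.2 CPM. DKO-moderate 1 had 47.4 and 17.9 CPM beside 7.47 CPM, and DKO-moderate 3 had 31.3 and 13.3 CPM beside 12.2 CPM. The part of these cells in the result was not tested. With WT 3, DKO-severe 1, and DKO-severe 2 left out, the *Plxnb2* log2 fold change was 5.99 in DKO-severe (edgeR adjusted p = 5.65e-04) and 4.47 in DKO-moderate (edgeR adjusted p = 0.00661).

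*Plxnb3* rose by 3.52 ± 1.14 on the log2 scale in DKO-severe (edgeR adjusted p = 0.0214) from 4 WT reads. *Plxna1*, whose product binds Sema6D, was at 11.1 to 14.9 CPM in WT and 10.4 to 20.5 CPM in DKO-severe and was not called (log2 fold change 0.31, edgeR adjusted p = 0.340). *Plxnd1*, the Sema3E receptor gene, was at 5.401 to 12.2 CPM in WT and 8.76 to 15.8 CPM in DKO-severe (log2 fold change 0.68, edgeR adjusted p = 0.0583). *Plxna2* had 3 WT reads and was not called. *Nrp2*, the neuropilin of Sema3F, was counted at 1.67, 2.13, 2.67, and 2.43 CPM in WT, 0.930, 1.01, 1.69, and 1.22 in DKO-moderate, and 1.07, 1.64, 0.738, and 0.862 in DKO-severe. *Nrp2* fell by 1.05 on the log2 scale in DKO-severe (edgeR adjusted p = 0.0165), and in DKO-moderate the value was -0.87 ± 0.32 (edgeR adjusted p = 0.0803).

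**Figure D3:**
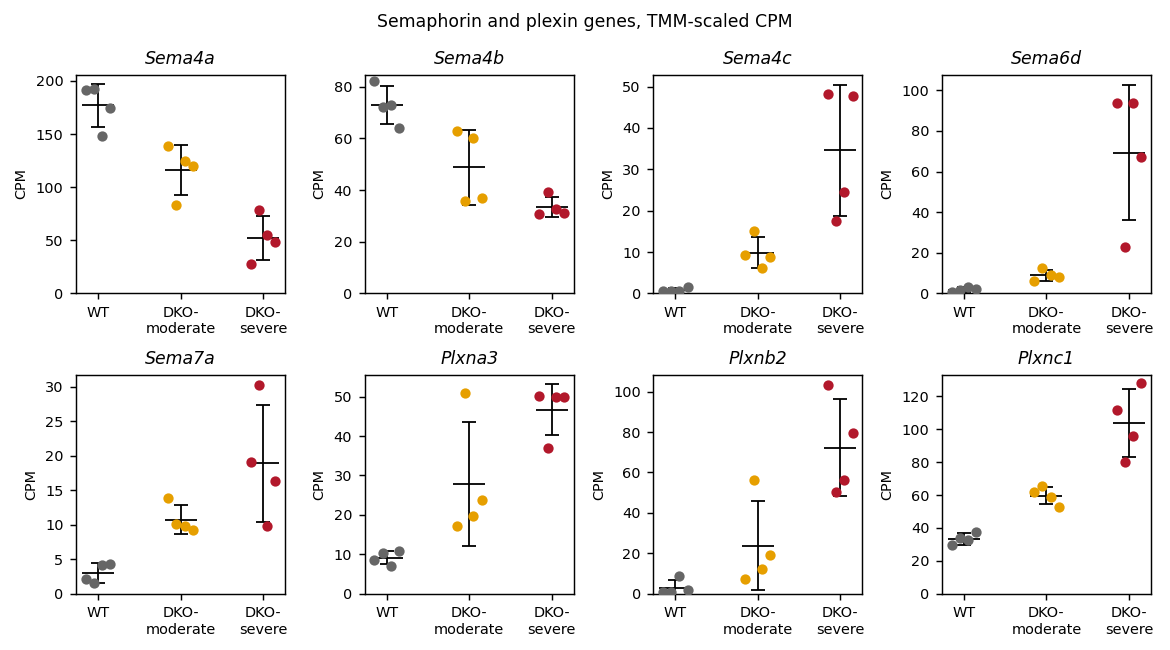
Levels of *Sema4a*, *Sema4b*, *Sema4c*, *Sema6d*, *Sema7a*, *Plxna3*, *Plxnb2*, and *Plxnc1* in CPM (y axes from 0) in the 4 libraries of each group (points), with the mean and SD (bars). *Sema4a* and *Sema4b* are lower in all DKO-severe libraries than in any WT library, and the other 6 genes are higher.

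Several genes for a ligand and for its known receptor were both read in these libraries, which also hold markers of other cells. For Sema4C and plexin-B2, the log2 fold changes in DKO-severe were 5.48 and 4.58, and for Sema7A and plexin-C1 they were 2.65 and 1.64. For Sema4D and plexin-B1 they were -0.33 and 1.45, only the second of which passed. For Sema6D and plexin-A1 they were 5.24 and 0.31, only the first of which passed. For Sema3F and neuropilin-2 they were 1.03 and -1.05, only the second of which passed. *Sema3e*, without WT reads, was called higher, and the gene of its receptor plexin-D1 was not called (0.68). Protein levels and binding were not measured.

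Divided by exon length, so that genes can be compared with one another, the 43 members summed per library to a mean of 124.5 ± 5.97 CPM per kb (SD, n = 4) for WT, 120.7 ± 10.2 for DKO-moderate, and 139.3 ± 11.6 for DKO-severe. Differences between these sums were not tested. *Sema4d* was the largest contributor in each group, at 30.1%, 27.5%, and 21.4% of the sum. In WT, *Sema4d* (37.5 CPM per kb), *Sema4a* (32.7), *Ephb6* (18.6), *Sema4b* (12.9), and *Sema4f* (9.17) were the 5 highest. In DKO-severe the order was *Sema4d* (29.8), *Sema4f* (17.1), *Ephb6* (12.6), *Plxnc1* (12.5), *Sema4a* (9.67), and *Plxnb2* (9.36), and the levels of *Ephb6* and *Plxnc1*, and of *Sema4a* and *Plxnb2*, lay within each other's SD.

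The plexins summed to 8.70 ± 1.26 CPM per kb for WT, 17.6 ± 6.09 for DKO-moderate, and 33.1 ± 5.93 for DKO-severe, with *Plxnc1* first in every group. EphA receptors summed to 0.1004 ± 0.0125, 2.04 ± 1.17, and 4.29 ± 0.841 CPM per kb, and class 6 semaphorins to 0.584 ± 0.0991, 1.38 ± 0.369, and 7.49 ± 3.26. *Ephb6* made up 99.4% of the Eph receptor sum in WT and 73.7% in DKO-severe. Class 4 semaphorins, by contrast, summed to 92.5 ± 5.84, 76.0 ± 11.6, and 70.1 ± 4.14 CPM per kb.

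**Figure D4:**
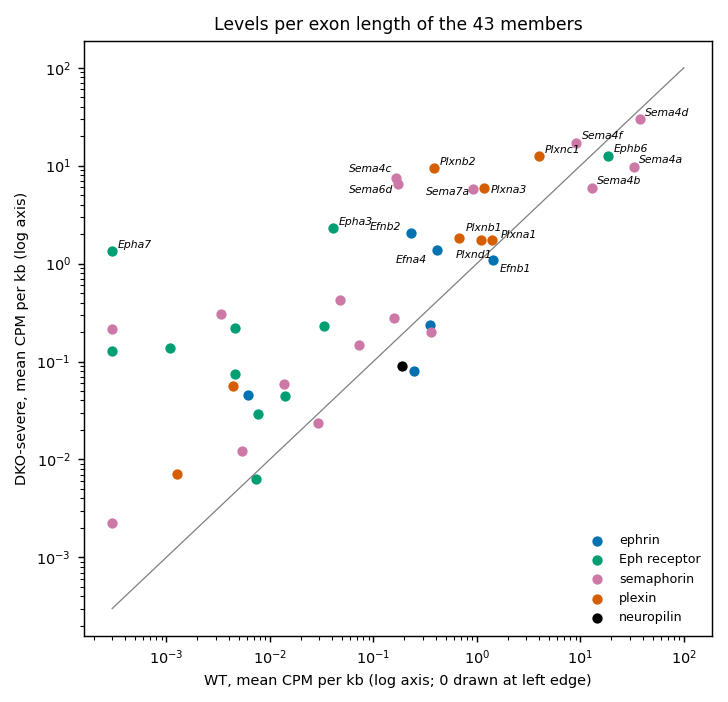
Mean level per exon length in DKO-severe (y axis, CPM per kb, log axis) against WT (x axis, CPM per kb, log axis) for the 43 members, coloured by role, with equality drawn as a line. Genes without WT reads are drawn at the left edge, genes above 0.5 CPM per kb are named, and the highest points, *Sema4d* (37.5 in WT and 29.8 in DKO-severe) and *Sema4a* (32.7 and 9.67), lie below the line.

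Between the DKO groups 8 of 43 members were called, beside 9.41% higher and 10.7% lower among all genes, so calls were about as frequent as in all genes. *Sema6d*, *Sema4c*, *Plxnc1*, *Epha3*, *Ephb3*, *Epha1*, and *Sema3f* exceeded their DKO-moderate levels in DKO-severe, and *Sema4a* was lower. For *Ephb3* the log2 difference was 2.60 ± 0.67 (edgeR adjusted p = 0.0193), for *Epha1* 1.98 ± 0.62 (edgeR adjusted p = 0.0423), and for *Sema3f* 1.42 ± 0.47 (edgeR adjusted p = 0.0496). None of the 6 ephrins was called between the DKO groups by edgeR or by DESeq2, and none had an unadjusted p under 0.05 in either. *Efnb2* had a higher mean in DKO-moderate (23.7 ± 20.1 CPM) than in DKO-severe (14.0 ± 2.76 CPM), a difference within the spread of the DKO-moderate libraries (edgeR adjusted p = 0.357). With the neutrophil and B cell terms no member was called between the DKO groups, and 8 had an unadjusted p under 0.05. In that fit 0.917% of all genes were higher and 0.0998% lower, so few genes of any kind were called.

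**Figure D5:**
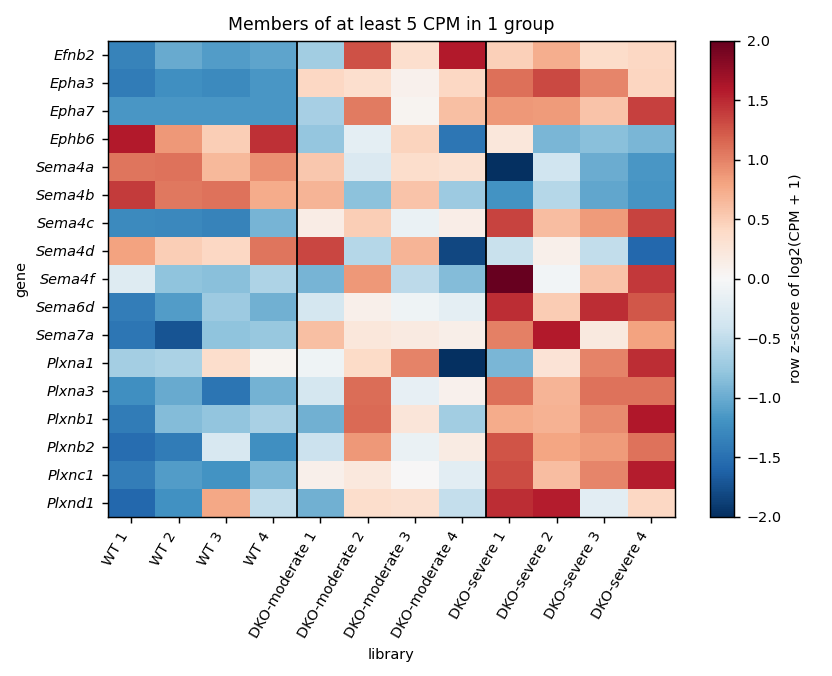
Levels of the 17 members whose mean reached 5 CPM in some group (rows) across the 12 libraries (columns), as row z-scores of log2(CPM + 1), red for high and blue for low. *Sema4a* and *Sema4b* are highest in WT, *Sema4c*, *Sema6d*, *Plxna3*, *Plxnb1*, and *Plxnc1* are highest on average in DKO-severe, and DKO-moderate 2 is redder than the other DKO-moderate libraries for *Plxna3*, *Plxnb1*, and *Plxnb2*.

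DKO-moderate 2 was the DKO-moderate library nearest to DKO-severe for several members. It had the highest DKO-moderate level of *Plxna3*, *Plxnb1*, *Plxnb2*, *Plxnc1*, *Sema4c*, *Sema6d*, and *Epha7*, and the lowest of *Sema4a*. Its Tfh marker sum, 1513 CPM, was the highest of the DKO-moderate libraries and its naive T cell sum, 2262 CPM, the second lowest. Without DKO-moderate 2, 12 members were called in DKO-moderate against WT in place of 17, and 13 in DKO-severe against DKO-moderate in place of 8. All genes moved the same way. Against WT, 9.39% were higher and 2.13% lower in place of 12.3% and 4.74%. Between the DKO groups it was 10.3% and 12.1% in place of 9.41% and 10.7%. The part of cell composition in these differences was not tested.

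Some calls depended on single libraries. In DKO-severe against WT, *Epha4* was not called without WT 1 or DKO-severe 1 (edgeR adjusted p up to 0.0637), *Ephb4* without WT 2, WT 3, WT 4, or DKO-severe 4 (up to 0.0692), *Plxnb3* without WT 1, WT 2, WT 4, or DKO-severe 2 (up to 0.0665), *Nrp2* without DKO-severe 3 or DKO-severe 4 (up to 0.0555), and *Sema6c* without WT 1, WT 2, WT 4, DKO-severe 1, DKO-severe 2, or DKO-severe 3 (up to 0.0836). In DKO-moderate against WT, calls were lost without WT 1, WT 2, or WT 4 for *Epha4* and *Plxnb2*, in both also without DKO-moderate 2 (edgeR adjusted p up to 0.206 and 0.0896), for *Ephb3* (up to 0.0603), and for *Sema6b*, also without DKO-moderate 2 or DKO-moderate 4 (up to 0.0973). *Ephb6* lost its DKO-moderate call without WT 1, WT 4, DKO-moderate 1, or DKO-moderate 4 (up to 0.0794 by edgeR), *Sema3e* without any 1 WT library or DKO-moderate 2 (up to 0.0678), and *Sema4b* in 9 of 12 fits, the exceptions being those without DKO-moderate 1, DKO-moderate 3, or DKO-severe 2 (up to 0.122). Between the DKO groups, *Epha3* was not called without DKO-moderate 3 or DKO-severe 1 (edgeR adjusted p up to 0.0670), *Epha1* in 7 of 12 fits (without WT 2, WT 4, DKO-moderate 1 to 3, DKO-severe 1, or DKO-severe 2, up to 0.110), and *Sema3f* in 10 of 12 (all but those without DKO-moderate 2 or DKO-severe 2, up to 0.125). The calls of *Efnb2*, *Epha7*, *Sema4a*, *Sema4c*, *Sema6d*, *Sema7a*, *Plxna3*, and *Plxnc1* were kept with each of the 12 libraries left out in turn.

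Other genes of axon guidance, a list of 78 cues, receptors, and intracellular effectors of which 67 were tested, moved in both directions. In DKO-severe against WT, 25 were higher and 15 lower (26.6% and 25.9% of all genes), in DKO-moderate against WT 11 and 7 (12.3% and 4.74%), and in DKO-severe against DKO-moderate 6 and 4 (9.41% and 10.7%, or 10 and 4 genes with counts scaled by library size alone). The median log2 fold changes were 0.29, 0.11, and 0.18, beside -0.01, 0.00, and -0.03 for all genes. They are not compared with the medians of the members, some of which passed the limit on reads only through a DKO group. Among genes reaching a mean of 5 CPM in some group, the steepest rises were in *Dpysl3*, a collapsin response mediator that acts downstream of semaphorins, with 0 to 0.0547 CPM in WT and 9.74 to 52.2 in DKO-severe, in *Ntng1*, the gene of netrin-G1 (0 to 0.191 CPM in WT and 24.5 to 48.2 CPM in DKO-severe), and in *Flrt2*, an adhesion protein gene (0.115 to 1.94 and 179 to 201 CPM). *Dpysl3* had 3 WT reads and a ratio of 1299 (95% interval 444 to 6302). The log2 fold change was 9.19 for *Ntng1* (edgeR adjusted p = 3.78e-05), 8.12 for *Flrt2* (edgeR adjusted p = 2.69e-05), 5.07 for the small GTPase regulator *Srgap3* (edgeR adjusted p = 5.28e-05), and 4.98 for *Slit3*, which encodes a Robo ligand (edgeR adjusted p = 0.00135). All 5 were low or absent in WT, and with the neutrophil and B cell terms *Slit3* did not pass (2.60, edgeR adjusted p = 0.167).

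Among genes reaching that level, the largest falls in DKO-severe were -2.79 for *Rgmb*, a ligand of neogenin and PD-L2 (edgeR adjusted p = 1.32e-05), -2.60 for *Mical3*, of a family that links plexins to actin (edgeR adjusted p = 0.00422), -2.19 for the kinase gene *Pak1* (edgeR adjusted p = 1.67e-04), -1.49 for *Ptk2*, focal adhesion kinase (edgeR adjusted p = 0.00315), and -1.25 for *L1cam*, an adhesion molecule that pairs with neuropilin-1 (edgeR adjusted p = 0.00181). With the neutrophil and B cell terms *Ptk2* (-0.12, edgeR adjusted p = 0.859) and *Mical3* (-0.97, edgeR adjusted p = 0.579) did not pass, nor did *L1cam* (-1.58, edgeR adjusted p = 0.0638), and *Ptk2* did not pass with the 3 libraries left out either (-1.05, edgeR adjusted p = 0.0511). *Rgmb* was at 25.9 to 36.9 CPM in WT and 3.504 to 6.12 CPM in DKO-severe, without overlap. *Nrp1*, the neuropilin not included among the members, was counted at 28.7, 41.8, 50.2, and 75.2 CPM in WT, 133, 61.7, 97.6, and 50.6 in DKO-moderate, and 96.8, 214, 112, and 139 in DKO-severe. It rose by 1.52 ± 0.36 in DKO-severe (edgeR adjusted p = 0.00391) and was at 0.81 ± 0.36 in DKO-moderate (edgeR adjusted p = 0.139), so the 2 neuropilin genes changed in opposite directions in DKO-severe, *Nrp2* falling.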

How the data were processed

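Raw read counts per gene were deposited by the authors, who aligned reads of directional libraries to mm10 with STAR 2.7.11, kept uniquely aligned reads, and counted them with htseq-count in reverse-stranded mode, without normalization. Reads shared by near-identical genes are thus left out. The annotation behind the counts is not given in the sources used here. Reads assigned to no gene (18.5% to 23.7% of a library) were left out. Genes with at least 10 reads over the libraries of a group were tested (16035) with edgeR 4.0.16 (TMM, quasi-likelihood F test, all 12 libraries in 1 fit, Benjamini-Hochberg adjustment over all genes, threshold 0.05) in R 4.3.3. The study used DESeq2, run here (1.42.0) as an alternative. A standard error is the log2 fold change divided by the square root of F. Replicates are separate mice. Coordinates and exon lengths are from GENCODE for GRCm38, promoters from RefSeq.

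Members and lists were chosen with earlier results of these data known. Values in every library are given for called members whose mean reached 5 CPM in some group, and some further called members. Members not called are given by range, and of the other guidance genes the 5 largest rises and 5 largest falls in DKO-severe against WT with at least 5 CPM in 1 group, and *Nrp1*.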

Additional observations from a re-analysis of the deposited data

Results flagged for a closer look

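In 79 sets of 4 libraries from members whose mean reached 1 CPM in some group, 9 had a library whose gap to its nearest neighbour, relative to the range of the 4, was above Dixon's 95% critical value, and chance alone flags about 1 in 20. The 16 members with a mean under 1 CPM in every group were not checked. *Plxnb2* was at 8.85 CPM in WT 3 and at 0.632 to 1.59 CPM in the other WT libraries. *Efnb3* was likewise high in WT 3, at 2.10 CPM against 0.765 to 0.839. *Sema4c* was at 1.48 CPM in WT 4 against 0.460 to 0.575. *Epha4* was at 8.98 CPM in DKO-moderate 2 against 0.133 to 0.323, and at 5.32 CPM in DKO-severe 1 against 0.335 to 0.952. *Sema3e* was at 6.24 CPM in DKO-severe 2 against 0.286 to 1.07. *Ephb6* was at 57.4 CPM in DKO-severe 1 against 44.2 to 45.0. *Plxna3* was low in DKO-severe 2, at 37.0 CPM against 49.9 to 50.2. *Sema6c* was low in DKO-moderate 1, at 1.51 CPM against 2.08 to 2.09.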

How the results depend on the processing

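No direction reversed among the calls of members and named guidance genes under the alternatives run. Of the 26 members called in DKO-severe against WT, 13 remained with neutrophil and B cell terms, and leaving out 1 library gave 23 to 27. In DKO-moderate against WT, 17 became 8 at an adjusted p under 0.01 and 10 to 19 with 1 library left out (10 without WT 1, 11 without WT 2, 10 without WT 4). Among all genes, 8.24% were higher and 1.88% lower without WT 1, 8.66% and 2.04% without WT 2, and 10.3% and 2.86% without WT 4. Shares of all genes at 0.01 were not computed. In DKO-severe against DKO-moderate, 8 became 13 with DESeq2, 0 with neutrophil and B cell terms, 2 at 0.01, 5 with the 3 libraries left out, and 5 to 13 with 1 library left out (5 without DKO-moderate 3 or DKO-severe 1, 13 without DKO-moderate 2). Among all genes, DESeq2 called 15.6% higher and 10.4% lower there, in place of 9.41% and 10.7%. The shares were 5.07% and 6.29% without DKO-moderate 3, and 5.91% and 6.51% without DKO-severe 1. With the replicate number as a block the 3 counts were 25, 12, and 4. Among all genes that fit called 24.2% higher and 24.4% lower, 10.5% and 3.27%, and 6.82% and 7.65%, in the same order. Residuals of libraries with the same number correlated at a median of -0.034 (-0.272 to 0.208, 12 pairs) and those with different numbers at 0.013 (-0.318 to 0.303, 36 pairs). The 2 ranges overlapped, and so few pairs cannot show whether libraries with the same number share more than that number. Of the other guidance genes, 40 in DKO-severe against WT became 14 with neutrophil and B cell terms (38 to 43 with 1 library left out), 18 in DKO-moderate against WT became 8 at 0.01 (13 to 19), and 10 in DKO-severe against DKO-moderate became 18 with DESeq2, 1 with the terms, 5 with only those 2 groups, and 3 at 0.01 (4 to 16, with 5 without DKO-moderate 1, DKO-severe 1, or DKO-severe 3, 4 without DKO-moderate 3, and 16 without DKO-moderate 2). Scaling by library size alone shifted the median of all genes by 0.18, 0.07, and 0.08 on the log2 scale in the 3 comparisons, and gave 10 higher and 4 lower guidance genes in DKO-severe against DKO-moderate in place of 6 and 4, while 4 were higher and 5 lower with the 3 libraries left out. With only the 2 DKO groups fitted, 7.76% of all genes were higher and 6.13% lower in DKO-severe against DKO-moderate. The cause of these changes was not tested. With edgeR's filterByExpr only 33 members were tested. Genes with few WT reads are limited by depth.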
